A study of Drosophila melanogaster with 8 samples.

Results

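The Dpr, DIP, Beat and Side families are cell-surface proteins of the immunoglobulin superfamily. Members were all genes of the count matrix whose symbol was dpr with a number or began with DIP-, beat- or side, and 53 of the 12610 genes met this rule: 21 Dpr, 11 DIP, 13 Beat and 8 Side genes. The gene beat-IIIa was not analysed here. Their RNA was measured by single-nucleus RNA-seq (snRNA-seq) of whole Drosophila melanogaster at the wandering 3rd instar, the last larval stage before the pupa. All 8 libraries had the same condition: strain w1118, a white-eyed laboratory strain, with no other allele and no treatment named, and 16 larvae pooled per library, 8 of them male and 8 female, frozen 5 days after egg deposition. Nuclei stained with DRAQ7 were sorted by FACS. The labels name no separate crosses or days for the pools, so the spread between libraries may be partly technical. Libraries 1 to 8 are named here after the barcode suffix.

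The files held 30819 nuclei in 28 clusters, 5 of which the authors had named neurons (clusters 6, 10, 17, 20 and 25; 4080 nuclei), 2 eye disc (14 and 26) and 8 mixed. A library held 3090 to 5405 nuclei and 3.82e+06 to 6.49e+06 corrected counts, of which 246 to 628 nuclei were neurons. The authors drew the clusters from these same counts, the members included, so a test between clusters measures how steady a difference was over the libraries and not whether the clusters exist. Levels are CPM, corrected counts of a gene scaled to a common total, from the summed nuclei of a cluster within 1 library, so that fewer expressing nuclei and less RNA per nucleus cannot be told apart. Of all nuclei, 2236 carried a barcode that also occurred in another library, a share of 0.760% in neurons, 12.97% in muscle and up to 39.3% in a mixed cluster, and what part these shared barcodes had in the levels was not tested beyond leaving them out.

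Dpr proteins, named after the fly gene defective proboscis extension response, bind proteins of the DIP family (Dpr-interacting proteins) on the surface of other cells, each DIP choosing 1 or a few Dprs. Beat proteins, named after beaten path, bind Side proteins, named after sidestep, in the same manner. In flies, both networks are known from neurons, where members guide axons to their targets and help partner neurons, or motor neurons and muscles, to recognise each other.

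The neuron label was first set against 9 neuron markers (elav, nSyb, Syt1, brp, para, fne, Rdl, Cadps and unc-13). Their summed median level was 12880 CPM in cluster 6, 13660 CPM in cluster 10 and 22806 CPM in cluster 25, but 4502 CPM in cluster 17 and 3723 CPM in cluster 20, and 1640 CPM in all nuclei outside the neurons. The transmitter genes VGlut, ChAT, VAChT, Gad1 and VGAT summed to medians of 896, 904 and 626 CPM in clusters 6, 10 and 25 and to 13.7 and 66.1 CPM in clusters 17 and 20. Clusters 17 and 20 thus carried the label with little of its markers. Eye disc cluster 26 had 17393 CPM of the neuron markers and cluster 14 had 3971 CPM.

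The number of members found in a single nucleus was counted next. After each nucleus had been thinned to 300 UMIs (unique molecular identifiers, 1 per RNA molecule), 1.96 ± 0.304 members were found per neuron nucleus (mean ± SD over the 8 libraries, range 1.52 to 2.39), against 0.227 ± 0.0645 per nucleus elsewhere (range 0.139 to 0.315). The libraries of both groups did not overlap. At this depth 71.4% of neuron nuclei and 17.5% of other nuclei held at least 1 member and 48.2% and 3.68% at least 2, and 25 neuron and 1152 other nuclei were too shallow to be thinned. Without thinning the numbers were 4.36 and 0.583 members per nucleus, at median depths of 871 and 960 UMIs.

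Neuron cluster 25 held the most, with 4.62 ± 1.21 members per thinned nucleus (range 3.20 to 6.74), and 99.8% of its nuclei held at least 1. Cluster 10 with 2.26 ± 0.246, eye disc cluster 26 with 2.21 ± 0.372 and cluster 6 with 2.19 ± 0.152 followed, and the libraries of these 3 overlapped. Myoblasts (cluster 12), the precursors of adult muscle, had 0.995 ± 0.138 members per nucleus. Clusters 17 and 20 had 0.505 ± 0.105 and 0.457 ± 0.0933, below the myoblasts, and the fat body, an organ without neurons, had 0.115 ± 0.242, where library 2, with 14 fat body nuclei, stood at 0.714. Without it the fat body had 0.0293 ± 0.00753 (median depth 898 UMIs in all 8).

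**Figure D1:**
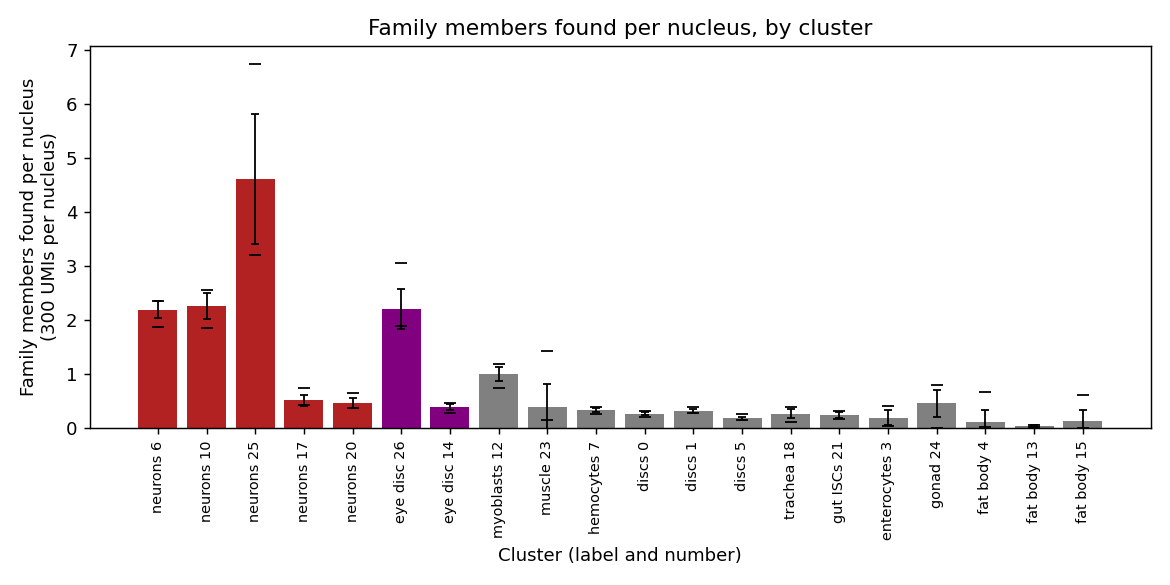
Number of the 53 members found per nucleus after thinning to 300 UMIs, for each of the 20 named clusters. Bars are means over the libraries, whiskers the SD and dashes the lowest and highest library. Cluster 25 ranges from 3.20 to 6.74 members per nucleus, above the highest library of each other cluster shown, and the ranges of clusters 6, 10 and 26 overlap.

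Summed over a family, the level in neurons was 3387 ± 1013 CPM for Dpr, 1914 ± 386 CPM for DIP, 2058 ± 557 CPM for Beat and 3313 ± 655 CPM for Side (mean ± SD, n = 8). In all other nuclei the sums were 199.9 ± 80.4, 166 ± 58.9, 307 ± 133 and 421 ± 148 CPM. Dpr genes had their highest sum in cluster 25 (10815 ± 2011 CPM), DIP genes in cluster 10 (2864 ± 373 CPM, most of it DIP-lambda), Beat genes in eye disc cluster 26 (5898 ± 915 CPM, most of it beat-IIIc) and Side genes in cluster 25 (7004 ± 2349.9 CPM). Without DIP-lambda the DIP sums were 1331 ± 566 CPM in cluster 25, 1175 ± 279 CPM in cluster 6 and 1104 ± 235 CPM in cluster 10, which overlapped. Without beat-IIIc the highest Beat sum was that of cluster 25 (3416 ± 1515 CPM), and cluster 26 had 306 ± 51.8 CPM. Both of these sums were chosen after the values were seen.

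Taken member by member, cluster 25 had the highest median for 30 of the 53 genes, clusters 6 and 10 for 8 each, eye disc cluster 26 for 3 (beat-IIIc, dpr9 and DIP-delta), hemocytes (cluster 7, the larval blood cells) for 2 (dpr3 and DIP-iota), and myoblasts and cluster 17 for 1 each (dpr16 and DIP-alpha). These are orders of medians, and many neighbouring clusters in them overlapped.

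**Figure D2:**
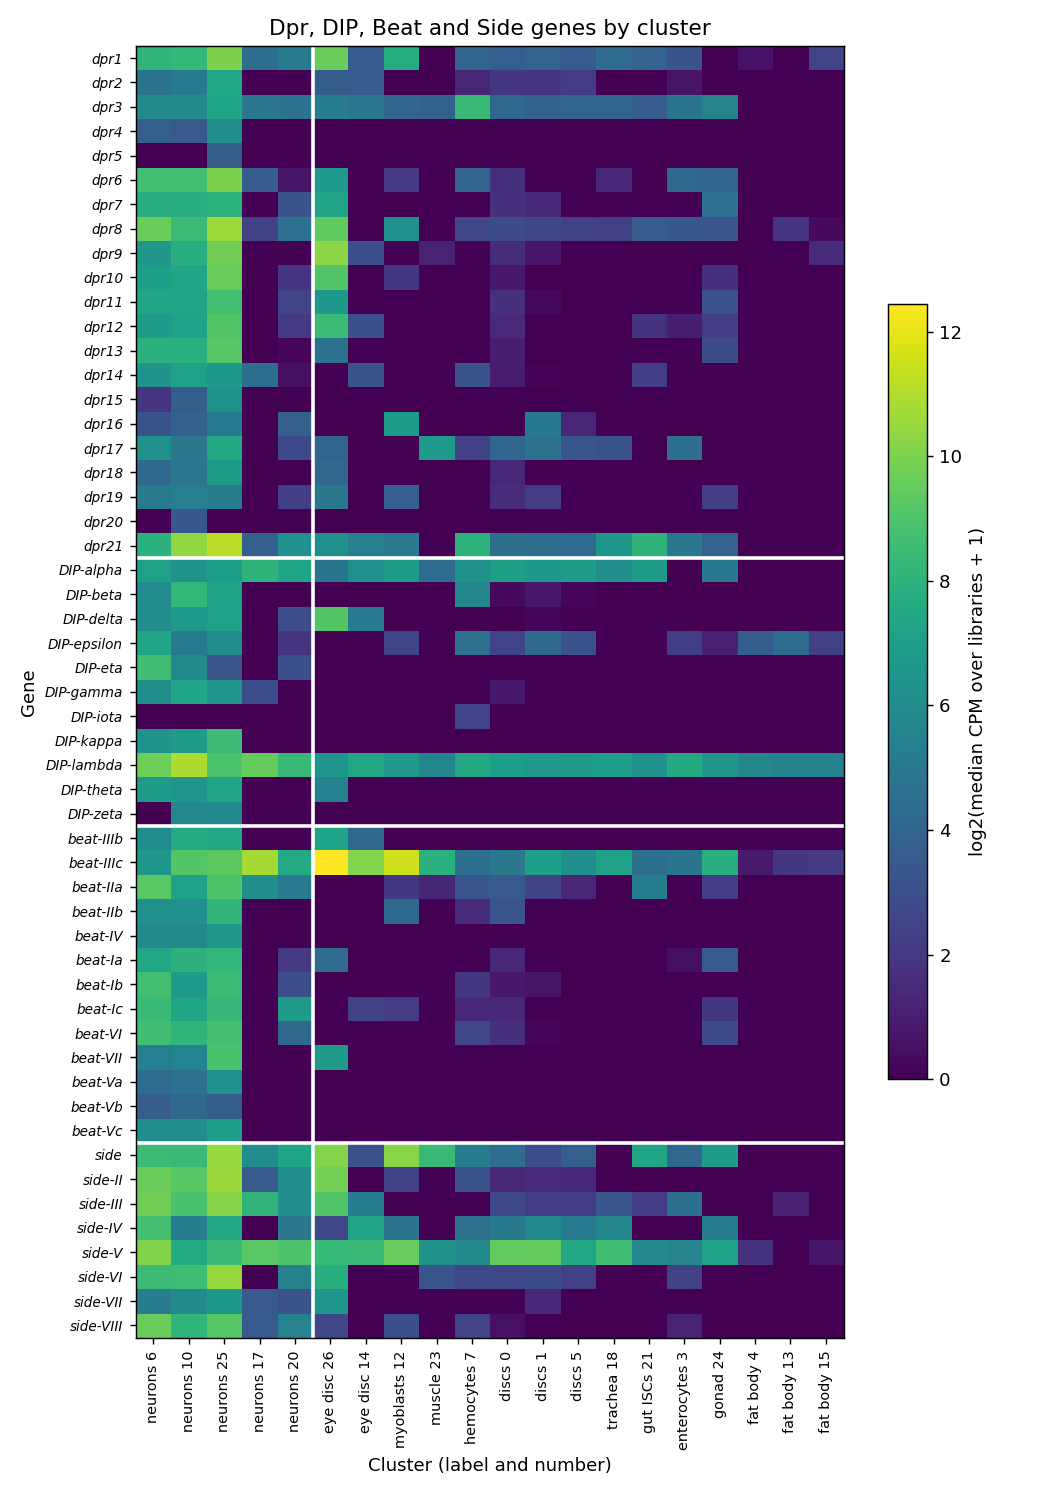
Median level over the 8 libraries of each of the 53 members (rows, by family) in each of the 20 clusters with a tissue name (columns), with colour for log2(median CPM + 1). Cluster 25 holds the highest median of 30 members. In clusters 17 and 20, also named neurons, most members have lower medians than in cluster 25. Some still lie above the nuclei outside the neurons, such as DIP-lambda (medians of 719 and 319 CPM against 76.0 CPM).

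The first comparison asked which members were higher in neurons than in the rest of the larva. Of the 53 members, 45 passed the filter on low counts, and 45 were higher in neurons and 0 lower, in edgeR's quasi-likelihood test with Benjamini-Hochberg adjustment (adjusted p below 0.05 and a log2 fold change of at least 0.54). Of all 7409 genes tested, 27.0% were higher and 36.5% lower. The median log2 fold change was 5.04 over these 45 members, against -0.17 over all genes tested. Of the 34 genes in a list of other immunoglobulin surface proteins such as Dscam1 and Fas2, 31 were tested, of which 23 were higher and 2 lower, with a median of 1.44.

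By family, 17 of 21 Dpr genes were tested and 17 were higher, with a median log2 fold change of 4.35. For DIP genes the figures were 9 of 11 tested, 9 higher and 5.23, for Beat genes 11 of 13, 11 and 5.78, and for Side genes 8 of 8, 8 and 4.71. Since a gene passes the filter mostly through the group where it is high, these counts do not stand for the genes left out. Those were DIP-iota, DIP-zeta, beat-Va, beat-Vb, dpr4, dpr5, dpr15 and dpr20, with medians in neurons from 0.844 CPM (DIP-iota) to 26.7 CPM (beat-Va). DIP-zeta, beat-Va, beat-Vb, dpr4 and dpr15 were above all other nuclei in 8 of 8 libraries with no overlap, while DIP-iota, dpr5 and dpr20 overlapped.

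Among the DIPs, DIP-gamma, a receptor of Dpr11 in fly neurons, had the largest fold change. It was found at 54.5 to 138 CPM (median 76.3) in neurons and at 0 to 1.43 CPM (median 0.290) in other nuclei, where 1 library was at 0. The groups did not overlap, and the log2 fold change was 7.58 ± 0.36 (SE; adjusted p = 4.33e-12, edgeR). DIP-eta, which lies next to DIP-theta on chromosome 2L, ran from 40.1 to 202 CPM (median 134) in neurons and from 0 to 3.12 CPM (median 1.00) elsewhere. Its log2 fold change was 6.70 ± 0.50 (edgeR adjusted p = 1.30e-09), again with no overlap. DIP-lambda was at 671 to 1461 CPM (median 1019) against 38.7 to 122 CPM (median 76.0). It was found in 25.7% of neuron nuclei but also in 8.68% ± 11.1 of fat body nuclei (SD, n = 8; median depth 871 and 898 UMIs). The source of its counts in the fat body was not tested. Library 2, with 14 fat body nuclei and fat body markers at 8928 CPM against 127499 to 147320 CPM in the other 7, stood at 35.7%. Without it the share was 4.82% ± 2.11 (range 1.97% to 8%).

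Among the Dprs, dpr13 and dpr6 had the largest fold changes. The level of dpr13 was 104 to 319 CPM (median 213) in neurons and 0.264 to 5.44 CPM (median 1.44) elsewhere, with a log2 fold change of 6.81 ± 0.41 (edgeR adjusted p = 6.15e-11). The level of dpr6, one of both Dprs that DIP-alpha binds, was 234 to 661 CPM (median 338) against 0.564 to 12.6 CPM (median 3.58). Its log2 fold change was 6.37 ± 0.45 (edgeR adjusted p = 6.11e-10), and it was found in 11.7% of neuron and 0.0891% of fat body nuclei. Neither gene's libraries overlapped between the groups.

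Of the Beat genes, 5 were among the 10 members with the largest fold changes. The level of beat-VI was 132 to 464 CPM (median 258) in neurons and 0.641 to 3.33 CPM (median 1.93) in other nuclei, a log2 fold change of 7.17 ± 0.33 (edgeR adjusted p = 3.02e-12). The genes beat-Ia, beat-Ib and beat-Ic, which lie side by side on chromosome 2L, had medians of 165, 227 and 225 CPM in neurons and of 1.78, 1.19 and 2.24 CPM elsewhere. In flies, beat-Ia lets motor axons leave their bundle for the muscle. The log2 fold changes of these 3 genes were 6.31 ± 0.40, 6.98 ± 0.44 and 6.24 ± 0.38, and that of beat-Vc was 6.76 ± 0.50, each without overlap of the groups.

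Among the Side genes, side-VIII had the largest fold change, at 292 to 487 CPM (median 375) in neurons against 0.466 to 7.88 CPM (median 2.02) elsewhere. Its log2 fold change was 7.20 ± 0.41 (edgeR adjusted p = 3.33e-11), with no overlap of the groups. The other 7 Side genes had log2 fold changes from 1.31 (side-V) to 5.53 (side-III). Since longer genes can yield more counts, levels of different members in neurons were also ranked per kb of gene span. There dpr7 (26.3 CPM per kb), dpr14 (18.5), side-V (14.6) and side-IV (11.2) led the 53. This scale favours short genes such as dpr7 (6.21 kb) and dpr14 (4.58 kb), and whether span is the right scale was not tested. Levels of different members given in CPM elsewhere are not corrected for length.

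At the other end, 5 members differed by less than 1.6 on the log2 scale. They were beat-IIIc (0.87 ± 0.24), dpr16 (0.98 ± 0.35), dpr3 (1.17 ± 0.23), side-V (1.31 ± 0.16) and DIP-alpha (1.56 ± 0.22). For beat-IIIc the level was 198 to 646 CPM (median 538) in neurons and 149.8 to 473 CPM (median 250.2) elsewhere, so that the groups overlapped, and it was higher in neurons in 6 of 8 libraries. The call of dpr16 was lost without a filter on low counts (log2 fold change 0.80, adjusted p = 0.0573) and when library 5, 6 or 8 was left out (0.68, 0.83 and 0.86, with edgeR adjusted p = 0.0957, 0.0642 and 0.0532). When neurons were set only against named clusters without the eye discs, 44 of the members were higher, with 21.3% of all genes.

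**Figure D3:**
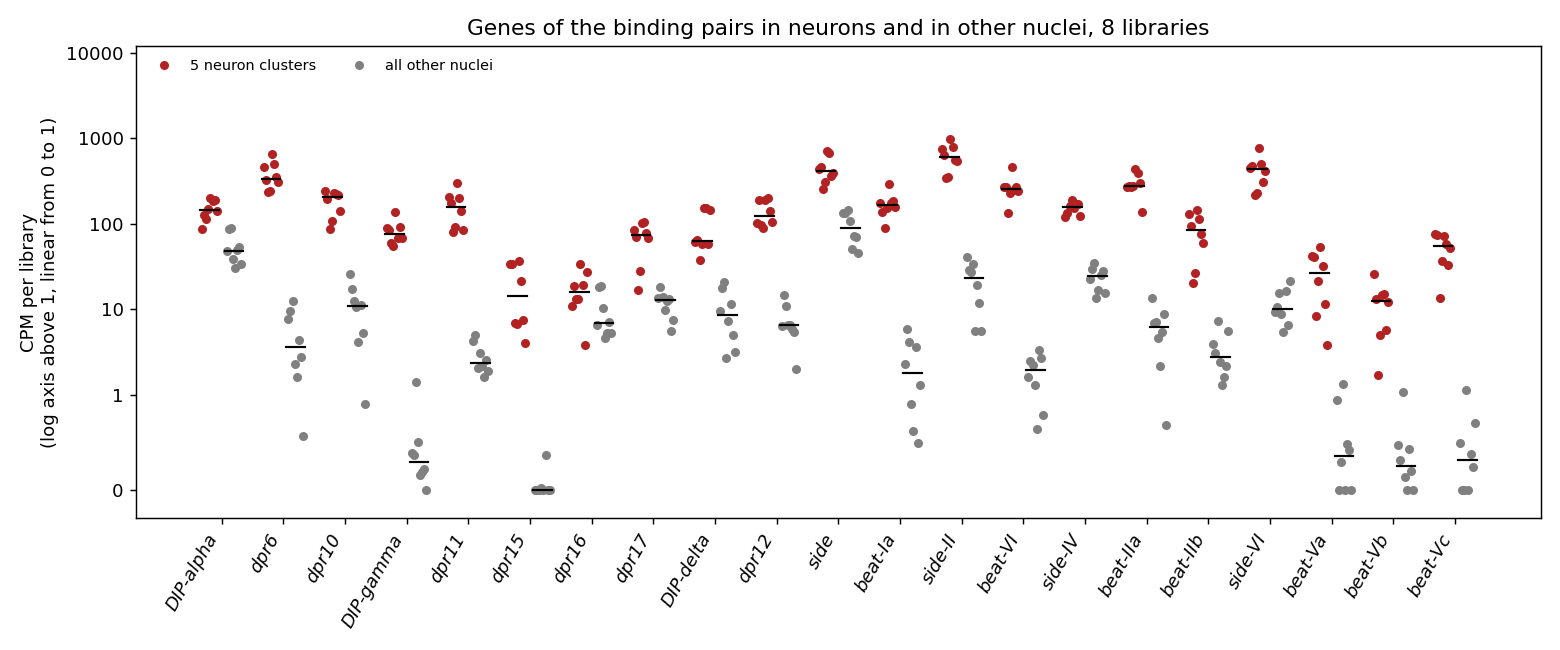
Level of the partners of known binding pairs in neurons and in all other nuclei (CPM on a log axis, 1 point per library). The groups overlap for DIP-alpha, dpr16 and dpr17, and for the other genes shown every neuron point lies above the points of the other nuclei.

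The known binding pairs were then followed over the clusters. DIP-alpha, which in fly motor neurons binds Dpr6 and Dpr10, had its highest median in the marker-poor cluster 17. Its level was between 142 and 412 CPM with a median of 271 in cluster 17, between 96.3 and 237 CPM with a median of 165 in cluster 20 and between 99.1 and 257 CPM with a median of 138 in cluster 6, and these ranges overlapped. It was lower in the medians of cluster 25 (122 CPM) and cluster 10 (87.0 CPM). Its partner dpr6 reached 362 to 1906 CPM (median 1019) in cluster 25 and 246 to 721 CPM (median 404) in cluster 6, against 0 to 28.6 CPM (median 11.3) in cluster 17 and 0 to 82.8 CPM (median 0.694) in cluster 20. The other partner, dpr10, which in flies is known from muscle as the target-side protein, had 273 to 1031 CPM (median 774) in cluster 25 and 96.4 to 973 CPM (median 528) in eye disc cluster 26, and was at 0 in all 8 libraries of cluster 17. In muscle (cluster 23) dpr10 had a median of 0 and a highest library value of 168 CPM.

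DIP-gamma had its highest median in cluster 10, where it was between 93.4 and 237 CPM with a median of 166. Its best-known partner, dpr11, which in the fly eye marks a class of colour-sensing photoreceptors, was highest in cluster 25 at 174 to 1011 CPM (median 415), and lay at 54.2 to 238 CPM (median 150.5) in cluster 10. Its further partners are dpr15, dpr16 and dpr17. The level of dpr15 was 0 to 206 CPM (median 80.6) in cluster 25, that of dpr17 was 0 to 415 CPM (median 179), and dpr16 stood in myoblasts at 43.8 to 177 CPM (median 108) against 0 to 84.6 CPM (median 33.7) in cluster 25.

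DIP-delta, which binds Dpr12 between neurons of the fly brain, had its highest level in eye disc cluster 26 (132 to 735 CPM (median 556)) and 0 to 479 CPM (median 138) in cluster 25. For dpr12 the values were 217 to 870.5 CPM (median 541) in cluster 25 and 143 to 765 CPM (median 354) in cluster 26, which overlapped. Both partners were thus found in cluster 26. The secreted protein cDIP, a further partner of Dprs and DIPs, was near 0 in each cluster described here, with a highest library value of 35.1 CPM, in cluster 25.

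Of the Beat and Side pairs, sidestep (side), the cue that in flies draws motor axons carrying Beat-Ia, was found both inside and outside the nervous system. Its level was 412 to 2564 CPM (median 1485) in cluster 25, 937 to 1812 CPM (median 1218) in myoblasts, 517 to 2701 CPM (median 1136) in eye disc cluster 26 and 0 to 674 CPM (median 338) in muscle. The first 3 of these overlapped. Its partner beat-Ia was found in the marker-rich neurons, with 207 to 713 CPM (median 301) in cluster 25, 136 to 354 CPM (median 256) in cluster 10 and 103 to 362 CPM (median 172) in cluster 6.

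The partners side-II and beat-VI differed in the eye disc. For side-II the level was 256 to 2351 CPM (median 1511) in cluster 25 and 667 to 2368 CPM (median 909) in cluster 26, whereas beat-VI was 0 to 1233 CPM (median 417) in cluster 25 and 0 to 17.5 CPM (median 0) in cluster 26. The gene side-IV had its highest level in cluster 6 (267 to 507 CPM (median 424)), as did one of its partners, beat-IIa (334 to 908 CPM (median 619)). The other partner, beat-IIb, was highest in cluster 25 at 68.7 to 492 CPM (median 277). For side-VI the level in cluster 25 was 1019 to 2384 CPM (median 1428), and its partners beat-Va, beat-Vb and beat-Vc had medians of 73.9, 11.6 and 123 CPM there, each with at least 1 library at 0.

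The second comparison was among the 5 neuron clusters. Of the 39 members tested, 39 differed among them (edgeR F test, adjusted p below 0.05), where 77.6% of all genes did. Each cluster was then set against the mean log level of the other 4. Cluster 25 was higher for 36 members (26.7% of all genes), cluster 6 for 32 (18.4%) and cluster 10 for 29 (22.6%), cluster 17 for 2 (19.9%) and cluster 20 for 0 (20.3%). Cluster 17 was lower for 35 (32.0%) and cluster 20 for 26 (20.7%). The fit for cluster 20 was not usable for DIP-epsilon, beat-IIIb, beat-Ia, beat-VII, beat-Vc, dpr10, dpr11 and dpr13, with SEs of 42.9 to 1213. Cluster 17, which enters the mean of the other 4, was at 0 in all 8 libraries for these genes. Each was lower in cluster 20 than in the other neuron clusters pooled in 8 of 8 libraries, so the count of 26 leaves them out.

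These counts leaned on clusters 17 and 20. A member called higher could even lie below the other neuron clusters pooled. DIP-eta, called in cluster 25, and DIP-beta, called in cluster 6, were each higher than the pooled clusters in 1 of 8 libraries. In cluster 17, 16 members were at 0 in all 8 libraries. Against a floor of 3 counts over the cluster (5.77 CPM), dpr13 was at least 40.8-fold lower there than in the other neuron clusters together, dpr10 at least 35.1-fold, beat-Ia at least 33.5-fold and dpr11 at least 31.0-fold. These bounds hold for counts from which ambient RNA had been subtracted, and such a subtraction can also leave a 0. The members higher in cluster 17 were DIP-alpha (0.79 ± 0.23 on the log2 scale, edgeR adjusted p = 0.00356) and beat-IIIc (1.97 ± 0.35, adjusted p = 5.82e-06). The level of beat-IIIc there ran from 14.02 CPM in library 7 and 50.1 CPM in library 8 to 3060.5 CPM in library 4. Against the other neuron clusters pooled it was higher in 5 of 8 libraries and lower in 3, and the ranges overlapped.

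Clusters 6, 10 and 25 were therefore also compared alone, a choice made after the data had been seen. Of 43 members tested, 37 differed among these 3 (49.4% of all genes). Cluster 25 was higher for 31 and lower for 0 (21.3% of all genes higher, 19.2% lower), cluster 6 higher for 7 (13.9%) and lower for 21 (18.2%), and cluster 10 higher for 4 (5.59%) and lower for 23 (9.59%). These calls are against the mean log level of the other clusters. Against clusters 6 and 10 pooled, not all 31 were higher in most libraries. There side-IV was higher in cluster 25 in 3 of 8 libraries, and beat-VI and DIP-zeta in 4 of 8. The members higher in cluster 25 were 12 of 14 Dpr genes tested, 11 of 11 Beat genes, 6 of 8 Side genes and 2 of 10 DIP genes. Of 29 other immunoglobulin surface proteins tested, 8 were higher in cluster 25 and 10 lower. Cluster 25 held 11 to 133 nuclei per library, with a median depth of 1337 UMIs against 694 in cluster 6 and 1039 in cluster 10.

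In cluster 25, beat-VII differed most, at 134 to 872 CPM (median 461) against 30.6 to 79.9 CPM in the nuclei of clusters 6 and 10 pooled within a library. These did not overlap, and the log2 fold change was 3.46 ± 0.25 (edgeR adjusted p = 3.96e-12). Next among the members named by the 5-cluster fit were dpr9 (562 to 1323 CPM (median 878); log2 fold change 2.46 ± 0.27) and dpr10 (2.32 ± 0.21), again with no overlap. The others were beat-IIb (2.23 ± 0.30), dpr12 (1.99 ± 0.22), side-VI (1.88 ± 0.20), dpr11 (1.87 ± 0.27), dpr13 (1.82 ± 0.27), dpr8 (1.70 ± 0.16) and beat-Ia (0.96 ± 0.25), of which dpr12, side-VI and dpr8 did not overlap the pooled clusters and the rest did.

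In cluster 6, 7 members were higher. The level of side-IV was 267 to 507 CPM (median 424) there, 12.1 to 57.1 CPM (median 35.8) in cluster 10 and 86.6 to 244 CPM (median 184) in cluster 25. Cluster 6 overlapped neither, and the log2 fold change was 2.23 ± 0.18 (edgeR adjusted p = 9.75e-11). The level of side-V was 870.1 to 1545 CPM (median 1101) in cluster 6 against 133 to 443 CPM (median 232) in the nuclei of both others pooled, with 1.99 ± 0.19 on the log2 scale, though cluster 25 alone reached 886 CPM. DIP-eta (2.13 ± 0.37), DIP-epsilon (1.40 ± 0.31), beat-IIa (1.01 ± 0.23), side-VIII (0.78 ± 0.24) and beat-Ib (0.70 ± 0.21) were also higher, and overlapped the pooled nuclei of clusters 10 and 25. Of these 7, side-IV, beat-IIa and beat-Ib were also called higher in cluster 25, against the mean log level of clusters 6 and 10. Against these clusters pooled, side-IV was higher in cluster 25 in 3 of 8 libraries and lower in 5. For dpr8, beat-Ic, dpr7 and side-II, which the 5-cluster fit had called in cluster 6, the differences were 0.01, 0.40, -0.21 and -0.18 and none passed the test.

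In cluster 10, the neuroblast list had a median sum of 20446 CPM, mostly from pros, a gene of newly born neurons. Of the 7 genes of this list, 4 were under 5 CPM there. The highest of the 4 calls in cluster 10 were beat-IIIc and DIP-beta. For DIP-beta the level was 227 to 446 CPM (median 302), against 7.28 to 171 CPM (median 63.7) in cluster 6 and 0 to 554 CPM (median 143) in cluster 25, and the log2 fold change was 1.00 ± 0.35 (edgeR adjusted p = 0.0459). The log2 fold changes were 1.02 ± 0.28 for beat-IIIc, 0.73 ± 0.22 for DIP-gamma and 0.64 ± 0.19 for dpr21, which at 839 to 1704 CPM (median 1361) in cluster 10 was still below 1434 to 3877 CPM (median 2303) in cluster 25 in its median. Further members named by the 5-cluster fit, beat-IIIb, beat-Ia, dpr7, DIP-delta, dpr14 and DIP-lambda, had differences of 0.36, -0.27, 0.01, -0.06, 0.45 and 0.73 and did not pass.

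**Figure D4:**
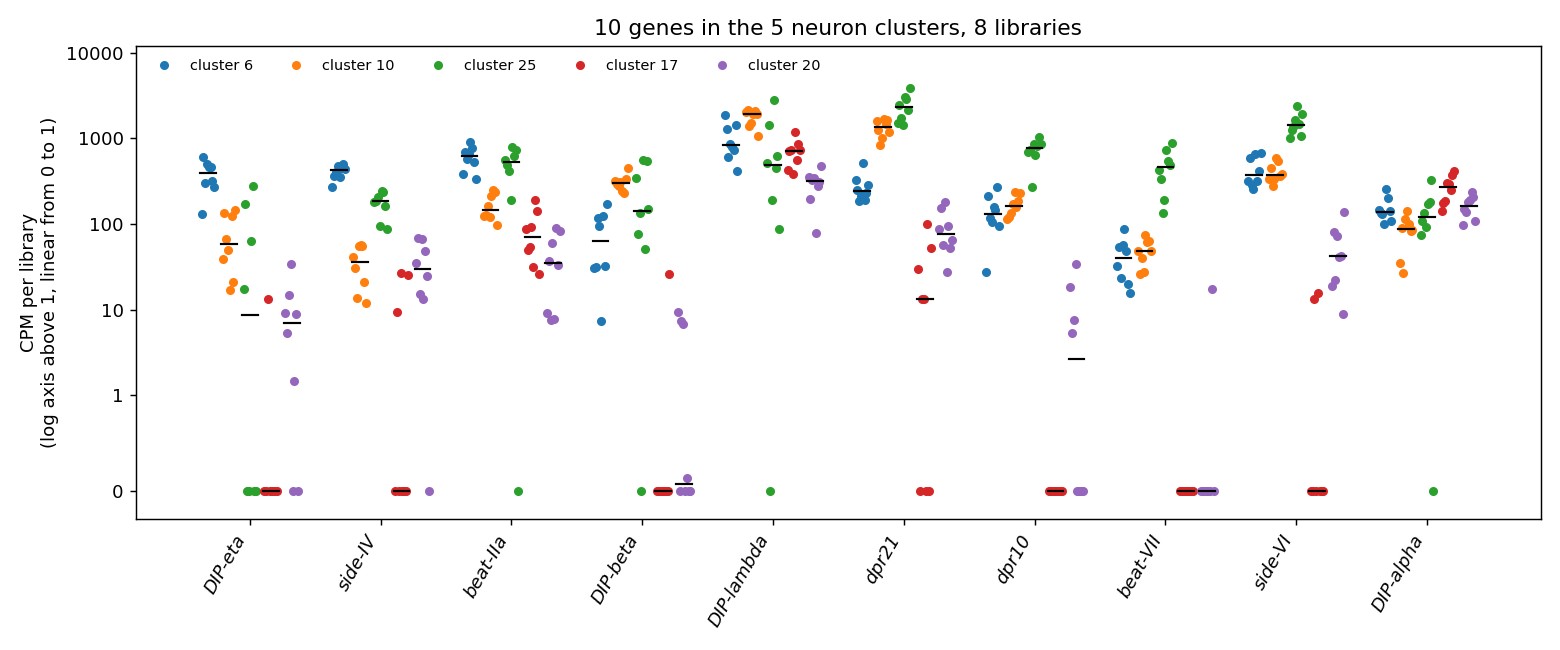
Level of 10 members in each of the 5 neuron clusters (CPM on a log axis that is linear near 0, 1 point per library, bar at the median). The beat-VII points of cluster 25 (134 to 872 CPM) lie above those of clusters 6 and 10, side-IV is highest in cluster 6, DIP-beta in cluster 10 and DIP-alpha in cluster 17.

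Neurons were also grouped by transmitter, since the motor neurons of the larva use glutamate and most other excitatory neurons acetylcholine. Nuclei with VGlut and without ChAT, VAChT or Gad1 numbered 345 (19 to 57 per library), and nuclei with ChAT or VAChT and without VGlut or Gad1 numbered 670 (44 to 105 per library). Their median depths were 1020.0 and 1010.0 UMIs, and 45.8% and 45.5% of them lay in cluster 6. Of 27 members tested, 3 differed, and 2.02% of all genes did.

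DIP-lambda was higher in the glutamatergic nuclei, at 1504 to 2786 CPM against 475 to 1007 CPM, with no overlap and a log2 fold change of 1.59 ± 0.16 (edgeR adjusted p = 2.21e-06). The Side gene side-IV was lower, at 0 to 165 CPM against 205 to 469 CPM (-1.79 ± 0.33, edgeR adjusted p = 0.00336). So was side-VIII, at 86.1 to 382 CPM against 431 to 999.5 CPM (median 675) (-1.497 on the log2 scale, edgeR adjusted p = 0.00336). Neither overlapped between the groups. With the library as a block, 6 members were called in place of 3, and beat-Ia, with 1.33 on the log2 scale and an edgeR adjusted p of 0.0691 without the block, was not among the 3.

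The eye disc is an epithelium in which photoreceptor neurons form behind a moving front. It gave the largest differences outside the 5 clusters named neurons, though cluster 26 held the neuron markers at a median sum of 17393 CPM. Both of its clusters held the eye list (gl, chp, ro, sens, lz, B-H1, so, eya and ato) at median sums of 3275 CPM in cluster 14 and 2868 CPM in cluster 26. Of 11 members tested between them, 9 were higher in cluster 26 (24.9% of all genes) and 0 lower (24.2%). Here too a gene passes the filter mostly through the group where it is high, so these counts do not stand for the members left out. Among those, side-IV was lower in cluster 26 in 8 of 8 libraries, and dpr10 and beat-VII were higher in 8 of 8. Of the other immunoglobulin surface proteins, 7 of 19 tested were higher and 6 lower. Cluster 26 had 16 to 62 nuclei per library at a median depth of 1307 UMIs, and cluster 14 had 61 to 138 at 898 UMIs.

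Among the Side genes, side-II, side and side-III were called. For side-II the level was 667 to 2368 CPM (median 909) in cluster 26, while cluster 14 was at 0 in all 8 libraries. It was thus at least 344-fold higher against a floor of 3 counts over the cluster (3.504 CPM). Ambient RNA had been subtracted before, so this bound holds for the corrected counts only. Sidestep was 517 to 2701 CPM (median 1136) against 0 to 54.5 CPM (median 7.53), with a log2 fold change of 6.66 ± 0.46 (edgeR adjusted p = 4.11e-11). The level of side-III was 475 to 997 CPM (median 527) against 0 to 119 CPM (median 37.6), a log2 fold change of 3.85 ± 0.31. None of these 3 overlapped between the clusters.

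Among the Dprs, dpr9 was 859 to 1774 CPM (median 1254) in cluster 26 and 0 to 34.8 CPM (median 7.23) in cluster 14. Its log2 fold change was 7.16 ± 0.29 (edgeR adjusted p = 1.26e-14). Those of dpr8, dpr1 and dpr12 were 7.35 ± 0.42, 6.25 ± 0.39 and 5.60 ± 0.40, and no range of these 4 genes overlapped. DIP-delta differed by 3.54 ± 0.40.

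The gene beat-IIIc, high in both eye disc clusters, was at 4187 to 7249.5 CPM (median 5552) in cluster 26 and 686 to 2263 CPM (median 1136) in cluster 14. The ranges did not overlap, and the log2 fold change was 2.35 ± 0.18 (edgeR adjusted p = 2.06e-10). In both, side-V and DIP-lambda differed by 0.63 ± 0.33 and -0.62 ± 0.33, with adjusted p of 0.113 and 0.118. A member that went the other way, too low to be tested here, was side-IV, at 0 to 22.5 CPM (median 5.38) in cluster 26 and 111 to 249 CPM (median 153) in cluster 14.

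**Figure D5:**
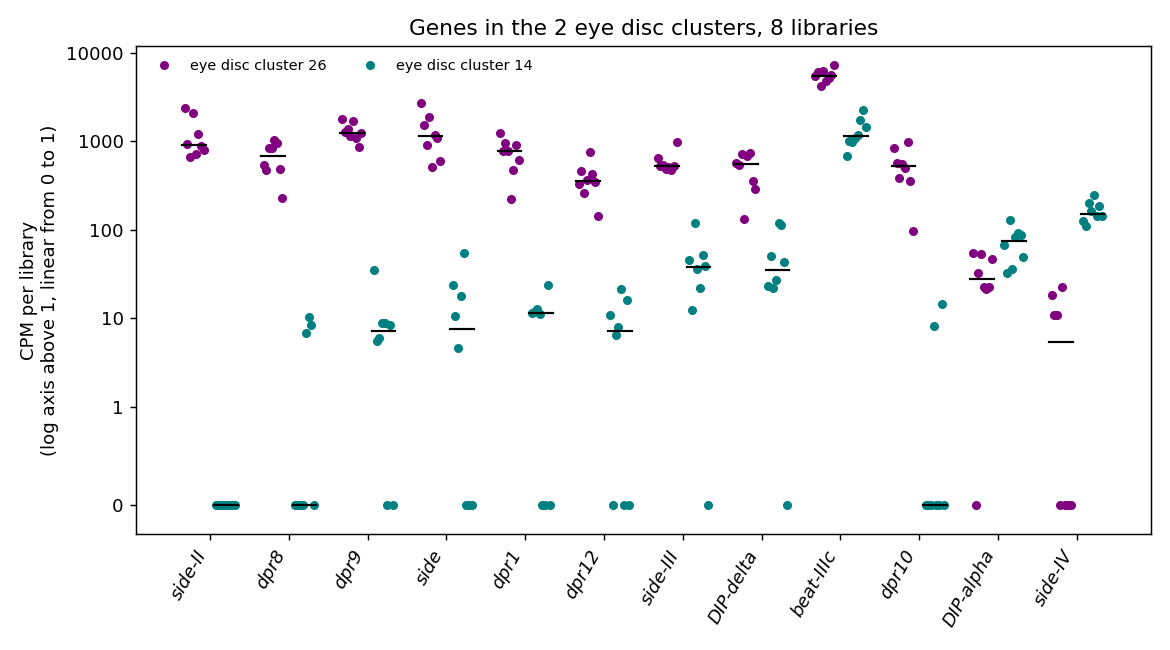
Level of the 9 members called between eye disc clusters 26 and 14, and of dpr10, DIP-alpha and side-IV (CPM on a log axis that is linear near 0, 1 point per library, bar at the median). All points of side-II in cluster 14 are at 0, beat-IIIc is high in both clusters and higher in 26, and side-IV is higher in cluster 14.

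Outside the 5 clusters named neurons, each of the other 23 was set against the remaining nuclei of these 23, which gave 1219 pairs of member and cluster. These nuclei are called non-neuronal by label only. Eye disc cluster 26 had 17393 CPM of the neuron markers, against 12880 and 13660 CPM in neuron clusters 6 and 10. Of the 356 pairs tested, 51 were higher, and 16.8% of the pairs of all genes were. A share of members close to that of all genes was thus called. As above, a gene passes the filter mostly through the group where it is high, so the counts do not stand for the pairs left out. Cluster 26 had 16 of them among 22 tested (11.2% of all genes), myoblasts 7 of 19 (12.6%), hemocytes 6 of 19 (20.7%), disc cluster 1 6 of 16 (23.4%), cluster 14 5 of 15 (12.2%) and muscle 2 of 14 (11.0%). The 10 pairs with the largest log2 fold changes were all of cluster 26: dpr9 (9.06 ± 0.39), side-II (8.19), DIP-delta (7.76), dpr12 (7.63), dpr10 (7.42), beat-VII (7.27), beat-IIIb (6.63), dpr7 (6.16), side-III (6.14) and dpr8 (6.07). The median log2 fold change of all genes in cluster 26 was -1.07, and -1.32 with DESeq2-style (RLE) size factors, so that these values are larger when taken relative to it.

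In myoblasts, side, beat-IIIc and dpr16 were among the calls. Sidestep was at 937 to 1812 CPM (median 1218) against 13.8 to 92.7 CPM (median 41.8) in the other non-neuronal nuclei, with a log2 fold change of 4.37 ± 0.28. The level of beat-IIIc was 2566 to 3710.5 CPM (median 3026) against 87.4 to 301 CPM (median 163), a log2 fold change of 3.79 ± 0.17. For dpr16, whose highest median over the 28 clusters was here, the log2 fold change was 4.12 ± 0.33. None of the 3 overlapped the pooled other nuclei, while eye disc cluster 26 alone overlapped in side and was higher in beat-IIIc. The neuron markers stood at a median sum of 2420 CPM in this cluster, with 3 of the 9 under 5 CPM. A list of 3 myoblast markers summed to a median of 1499 CPM here but to 1754 CPM in hemocytes, so it does not set these clusters apart. A list of 3 hemocyte markers did, with medians of 33.2 CPM here and 1878 CPM in hemocytes. Calls outside the 10 largest pairs were picked for the text after their values were seen.

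Hemocytes held dpr3 and dpr21. The level of dpr3 was 254 to 382 CPM (median 331) against 3.96 to 18.8 CPM (median 10.9) in the other non-neuronal nuclei, a log2 fold change of 4.70 ± 0.24 (edgeR adjusted p = 8.73e-12). That of dpr21 was 233 to 435 CPM (median 264), a log2 fold change of 3.23 ± 0.23. DIP-beta, at 9.41 to 91.5 CPM (median 49.0), differed by 5.16 ± 0.46. The groups overlapped for none of the 3, and the neuron markers summed to a median of 996 CPM in hemocytes.

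In muscle, the target of the motor axons, dpr17 and side were called. The 7 muscle markers had a median sum of 18951 CPM here, but ran from 3863 to 27512 CPM over the libraries. In all nuclei outside the neurons they reached 6020 CPM, so the label held in the median and not evenly over the libraries. The neuron markers ran from 319 to 3151 CPM in muscle. For dpr17 the libraries with a value had 99.4 to 527 CPM and libraries 2, 3 and 7 were at 0, and the log2 fold change was 4.07 ± 0.48 (edgeR adjusted p = 3.46e-07). Sidestep was 0 in library 3, 66.1 CPM in library 2 and 264 to 674 CPM in the others, a log2 fold change of 1.95 ± 0.44 (edgeR adjusted p = 8.08e-04). Both overlapped the other non-neuronal nuclei. Muscle had 7 to 129 nuclei per library, and the library with 7 gave single high values of dpr8 (849 CPM), beat-Ic (1298 CPM) and side-VI (1205 CPM). Without library 5 or library 8, 4 members were called in muscle in place of 2.

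In the imaginal discs of wing, leg and haltere, side-V was found at 579 to 818 CPM (median 704) in cluster 0 and 542 to 967 CPM (median 726) in cluster 1, with log2 fold changes of 1.76 ± 0.18 and 1.77 ± 0.20 (cluster 0 had 2 calls among 15 members, with 26.4% of all genes called). Its range in neurons, 498 to 696 CPM, overlapped both. DIP-alpha was 109 to 139.7 CPM (median 129) in disc cluster 0, a log2 fold change of 1.37 ± 0.19. In the stem cells of the gut (cluster 21), dpr21 at 102 to 517 CPM (median 274) and beat-IIa at 0 to 229.8 CPM (median 37.6) were the calls among 13 members (12.6% of all genes), with 2.57 ± 0.27 and 2.95 ± 0.58.

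Several members lie next to each other in the genome. By the Ensembl annotation of BDGP6.54, dpr6 (chromosome 3L, 9974651 to 10139360, plus strand) and dpr10 (chromosome 3L, 10147454 to 10186108, minus strand) are 8.09 kb apart on opposite strands. Against the other non-neuronal nuclei, both were called higher in eye disc cluster 26, dpr10 at 96.4 to 973 CPM (median 528) with a log2 fold change of 7.42 ± 0.63 and no overlap, and dpr6 at 0 to 207 CPM (median 106) with 4.88 ± 0.52 and an overlap. DIP-eta (chromosome 2L, 5601723 to 5617946, minus strand) and DIP-theta (chromosome 2L, 5626291 to 5658560, minus strand) are 8.34 kb apart, and cluster 6 held 392 and 113 CPM of them, and cluster 25 held 8.64 and 152 CPM. The genes beat-IIa and beat-IIb, 55.0 kb apart on 3R, had medians of 619 and 73.9 CPM in cluster 6. The genes dpr10, dpr11, DIP-alpha, DIP-beta, DIP-epsilon, beat-Ic, beat-IIIb, beat-IIIc, dpr2 and dpr8 overlap another gene of the matrix on the same strand, so that their counts are uncertain to the extent that reads were shared.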

How the data were processed

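The deposited expected counts are UMI counts per gene and nucleus from which ambient RNA had been subtracted, so they are not whole. The authors made them with Cell Ranger (version 7.1.0, build BDGP6 per the labels, 10000 barcodes per library), subtracted ambient RNA with DecontX, removed nuclei under 50 genes or 80 UMIs and removed doublets with DoubletFinder at 5%. They joined the libraries with Harmony on 30 components and clustered by the Leiden method at resolution 1. Whether intronic reads were counted is not given in the sources used here. No further doublet caller was run.

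Corrected counts were summed per library and cluster (sums of under 5 nuclei left out), rounded to whole numbers and tested with edgeR 4.0.16 (quasi-likelihood, TMM, filterByExpr, Benjamini-Hochberg over all genes tested) in R 4.3.3. Genes were called where the adjusted p was under 0.05 and the log2 fold change reached 0.54 in size. SEs are the fold change over the root of F. The reported fits had no library block. Sums of 1 library come from 1 pool, so library numbers pair them. The correlation of deviations between same-numbered sums had a median of 0.0831 for neurons and other nuclei, 0.0594 for the eye disc and 0.347 for the transmitter groups, against -0.0136, -0.0193 and -0.0149 for sums with other numbers. A member was found in a nucleus at a corrected count of at least 0.5. Nuclei were thinned to 300 UMIs for members per nucleus. Alternatives were DESeq2 1.42.0, RLE size factors, no filter, no minimum fold, nuclei with at least 200 genes, the library block and each library left out. Unshared barcodes alone, all sums kept and clusters 6, 10 and 25 alone were added after seeing the data. The edgeR script was tested on simulated data.

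The members, gene lists and binding pairs were chosen with earlier results of these data known. Named were all called members where at most 10 were called, otherwise the 10 with the largest fold change in the same direction in at least 7 of 8 libraries, and the partners of the binding pairs. Sums were made with pandas 2.3.3, numpy 2.4.6 and scipy 1.17.1 under Python 3.11.15, and figures drawn with matplotlib 3.10.9. Gene positions are from Ensembl's BDGP6.54 annotation, and no sequence was used.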

Additional observations from a re-analysis of the deposited data

Results flagged for a closer look

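In 63 values tested for a library far from the other 7 of its group, 5 stood apart, where chance alone marks about 1 in 20. In library 5, 3 neuronal genes were high: DIP-gamma at 137.5 CPM (next highest library 91.8 CPM), beat-Ia at 295.2 CPM (next 185 CPM) and beat-VI at 464.4 CPM (next 269 CPM), all in the summed neurons. In library 8, dpr5 stood at 12.0004 CPM in neurons (next 5.51 CPM), and side-III at 996.5 CPM in eye disc cluster 26 (next 643 CPM), which held 16 nuclei in that library.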

How the results depend on the processing

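The fold changes of named members were refitted 1170 times, not counting the fit of clusters 6, 10 and 25 alone. Of these refits, 1166 kept their direction and their side of the threshold and none reversed. The other 4 lost the call, all of dpr16 in neurons. With no filter on low counts, more members entered: 25 in place of 9 were higher in eye disc cluster 26 and 1 in place of 0 lower, 8 in place of 2 were higher in muscle, 84 in place of 51 pairs were called outside the neurons, and 9 in place of 3 differed by transmitter. With clusters 6, 10 and 25 alone, a choice added after seeing the data, 7 members in place of 32 were higher in cluster 6 and 4 in place of 29 in cluster 10, since the low clusters 17 and 20 were then out of the mean. Named members that lost the call and changed sign there were dpr7 (-0.21) and side-II (-0.18) in cluster 6. In cluster 10 they were beat-Ia (-0.27) and DIP-delta (-0.06).

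The library numbers pair the sums, and with the replicate block 6 in place of 3 members differed by transmitter. The block moved no other count of calls by more than 1.5 times. Leaving out each library in turn gave 44 to 47 members higher in neurons, 9 to 12 higher and 0 to 2 lower in cluster 26 (2 without library 1, and 1 without library 2, 6 or 8), 2 to 4 in muscle (4 without library 5 or 8) and 47 to 55 pairs outside the neurons. RLE factors in place of TMM moved the median of all genes by -0.69 to 0.91 on the log2 scale in single clusters outside the neurons and called 54 pairs there. Without thinning, members found per nucleus averaged 4.36 in neurons and 0.583 elsewhere. Cluster 25 with 11 nuclei, cluster 26 with 16 and muscle with 7 in their smallest library limit the depth: a library at 0 there does not show absence.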
